A study of Mus musculus with 10 samples.

Results

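Krt6a, Krt6b, Krt16 and Krt17, the stress keratins, were followed in single cells from the back skin of mouse embryos. They are 4 of the 27998 genes listed in the E16.5 libraries and of the 32285 listed in the E15.5 and E17.5 libraries, and were found by their symbols. Their levels in control and mutant cells of the gates described below, at every stage, were already known when they were chosen, so those contrasts are described here and carry no test. The embryos were MOFfl/fl/K14Cre (MOF cKO), QPCfl/fl/K14Cre (QPC cKO) or Control, a name that the labels do not define further, and the study used wildtype or heterozygous littermates. MOF (gene symbol Kat8) acetylates lysine 16 of histone H4, and QPC (gene symbol Uqcrq) is a subunit of respiratory complex III. Krt14-Cre acts in epithelium, so the dermis was not its target. Both MOF stages had 2 libraries a group, with control replicates 2 and 3 and MOF cKO replicates 5 and 6 at E15.5, and replicates 1 and 2 of each group at E16.5, whereas the E17.5 comparison of QPC cKO with control had 1 library a group. The embryo of MOF cKO replicate 6 was held to be mosaic for the deletion in the study's text. The study's text describes the E15.5 libraries as coming from separate control and mutant embryos, which the labels do not spell out, and the adjusted p-values measure the spread between a pair of libraries a group.

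Keratins are the filament proteins of epithelial cells, and a filament is built from a type I and a type II chain. Krt6a and Krt6b encode type II chains that pair with the type I chains of Krt16 and Krt17. Intact interfollicular epidermis of adult skin holds little of them, whereas keratinocytes at a wound edge, in psoriasis or under barrier stress make them in quantity, with the basal pair Krt5 and Krt14 or in place of the differentiation pair Krt1 and Krt10. The companion layer of the hair follicle contains Krt6 and Krt16 without injury, and Krt17 marks the hair germ and the periderm of the embryo.

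The 4 genes lie on the minus strand (GRCm38, GENCODE vM21). Krt16 (ENSMUSG00000053797) is at chr11:100246091-100248902 with 8 exons, and Krt17 (ENSMUSG00000035557) is its neighbour at chr11:100256217-100261029 with 8 exons. Krt6b (ENSMUSG00000023041) is at chr15:101676023-101680287 and Krt6a (ENSMUSG00000058354) is beside it at chr15:101689910-101694307, each with 9 exons. Krt6a and Krt6b are near copies of each other, which bears on how their counts can be read. Their coding sequences were identical at 1625 of 1662 aligned bases (97.8%), with a longest shared run of 280 bases. Identity was lower in the last 400 bases of the transcripts, where a 3' assay reads, at 84.5% with a longest shared run of 22 bases. The last 60 coding bases of each, ending in the stop codon and lying in 1 exon, are shown because the copies differ there. They are followed by 557 (Krt6a) and 506 (Krt6b) untranslated bases, so they lie outside the last 400 transcript bases. Capitals mark bases that differ from the other copy or have no partner in it.
Krt6a, chr15:101690467-101690526, minus strand: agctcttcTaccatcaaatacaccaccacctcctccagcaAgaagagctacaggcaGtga
Krt6b, chr15:101676529-101676588, minus strand: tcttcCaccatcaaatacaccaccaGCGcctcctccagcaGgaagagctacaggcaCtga
The Krt6a stretch holds 3 such bases and the Krt6b stretch 6. Krt16 and Krt17 were 80.9% identical in coding sequence and 72.1% in their last 400 transcript bases, where their longest shared run was 55 bases. Krt14 was 87.4% identical to Krt16 and 86.8% to Krt17 in coding sequence, with longest runs of 55 and 71 in the last 400 bases. Reads within a shared run could be left uncounted or given to the wrong gene. The split between Krt6a and Krt6b is therefore less certain than their sum. The split among Krt16, Krt17 and Krt14 is open to the same error.

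Libraries held 13609345 to 203392303 UMIs, the unique molecular identifiers that count captured RNA molecules. Cells were kept if more than 1000 but fewer than 6000 genes were detected in them and mitochondrial UMIs made up less than 10%, which left 716 to 10653 cells per library, with a median of 9600 to 22340 UMIs. Libraries shared at most 0.354% of the barcodes of the smaller library. Cells were sorted into gates by their own counts. Basal gate cells had at least 10 UMIs of Krt5 and Krt14 together and under 10 of Krt1 and Krt10, suprabasal gate cells had at least 20 UMIs of Krt1 and Krt10, and dermal gate cells had at least 20 collagen UMIs and under 10 of either keratin pair. Dermal fibroblasts should lack these keratins, so the dermal gate serves as a background level. Whether that level came from free keratin RNA or from barcodes of mixed cells was not tested. Levels are UMIs of a gene per 1e+06 UMIs of a gate (CPM), and were compared for a gene between samples; shares of one member among the UMIs of the 4 are of captured molecules, not scaled for length. The listed genes differed between E16.5 and the other stages, no stage holds both mutants, and comparisons stay within a stage.

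The basal gate held 2470 and 2584 cells in the E15.5 controls and 901 and 1445 in MOF cKO, 239 and 464 in the E16.5 controls but 21 and 22 in MOF cKO, and 2807 and 1066 in the E17.5 control and QPC cKO. The suprabasal gate held 147 and 361 against 188 and 213, then 31 and 66 against 9 and 13, and 190 against 72. The E16.5 MOF cKO values below therefore rest on few cells. At E16.5 the targeted Kat8 was 16.4 and 14.9 CPM in control basal cells and 8.31 and 4.51 in MOF cKO, from 3 and 2 UMIs. At E15.5 basal cells had 13.0 and 13.7 against 13.4 in replicate 5 and 10.3 in replicate 6, groups that overlapped, whereas suprabasal cells had 12.2 and 14.6 against 9.53 and 8.70. Kat8 in the dermal gate, which Krt14-Cre does not target, was 10.2 and 8.34 CPM in the E16.5 controls against 2.62 and 5.33 in MOF cKO, and 9.30 and 9.72 against 6.84 and 6.06 at E15.5, so its lower level was not particular to the epidermal gates. Uqcrq was 103 CPM in E17.5 control basal cells and 45.7 in QPC cKO, against 73.0 and 122 in the dermal gate. A 3' tag can lie outside the deleted part of a gene, so these values are a weak check of the labels.

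Krt6a and Krt6b were barely detected in control epidermis and abundant in the suprabasal gate of MOF cKO at E16.5. Krt6a was 6.03 and 4.84 CPM in the 2 controls, from 3 and 4 UMIs, and 16508 and 10199 in MOF cKO. The group means were 5.44 ± 0.840 and 13354 ± 4461 (SD, n = 2 each), a ratio of 2456. Both mutant libraries stood far above both controls. Of the 4266 genes tested in this gate, 16.1% had both mutant libraries above both controls by any distance, and 49.6% had both below. Krt6b was at 0 in both controls and at 22291 and 9195 CPM in MOF cKO, a mean of 15743 ± 9260 (SD, n = 2). Against the floor of 3 counts over the control group it was at least 6946-fold higher.

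The type I partners were higher there too, from a different starting level. Krt16 was 175 and 29.1 CPM in the E16.5 control suprabasal gates, and 32108 and 17000 in MOF cKO. Its means were 102 ± 103 and 24554 ± 10683 (SD, n = 2 each), a ratio of 241. Krt17 was the member that control epidermis already made, and it differed least. It was 1463 and 1122 CPM in the controls, where 1 cell held 59.1% of its UMIs in replicate 2, and 7320 and 4776 in MOF cKO. Its means were 1293 ± 241 and 6048 ± 1799 (SD, n = 2 each), a ratio of 4.68. The 4 members together took 1644 and 1156 CPM of control suprabasal RNA and 78227 and 41170 of that of MOF cKO, a log2 ratio of means of 5.41 with a pseudocount of 1. That is several percent of all captured RNA in the mutant cells. Suprabasal barcodes outside the cell limits held 10991 and 5410 CPM of the 4 in the controls (7 and 6 barcodes). In MOF cKO they held 73160.5 and 11637 (2 and 4 barcodes). All 4 members were called higher by the edgeR test at an adjusted p under 0.05, where 3.35% of the 4266 genes tested were called higher, 0.68% lower and 4.03% in either direction; the members were chosen on this contrast and nothing is read from their count.

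**Figure D1:**
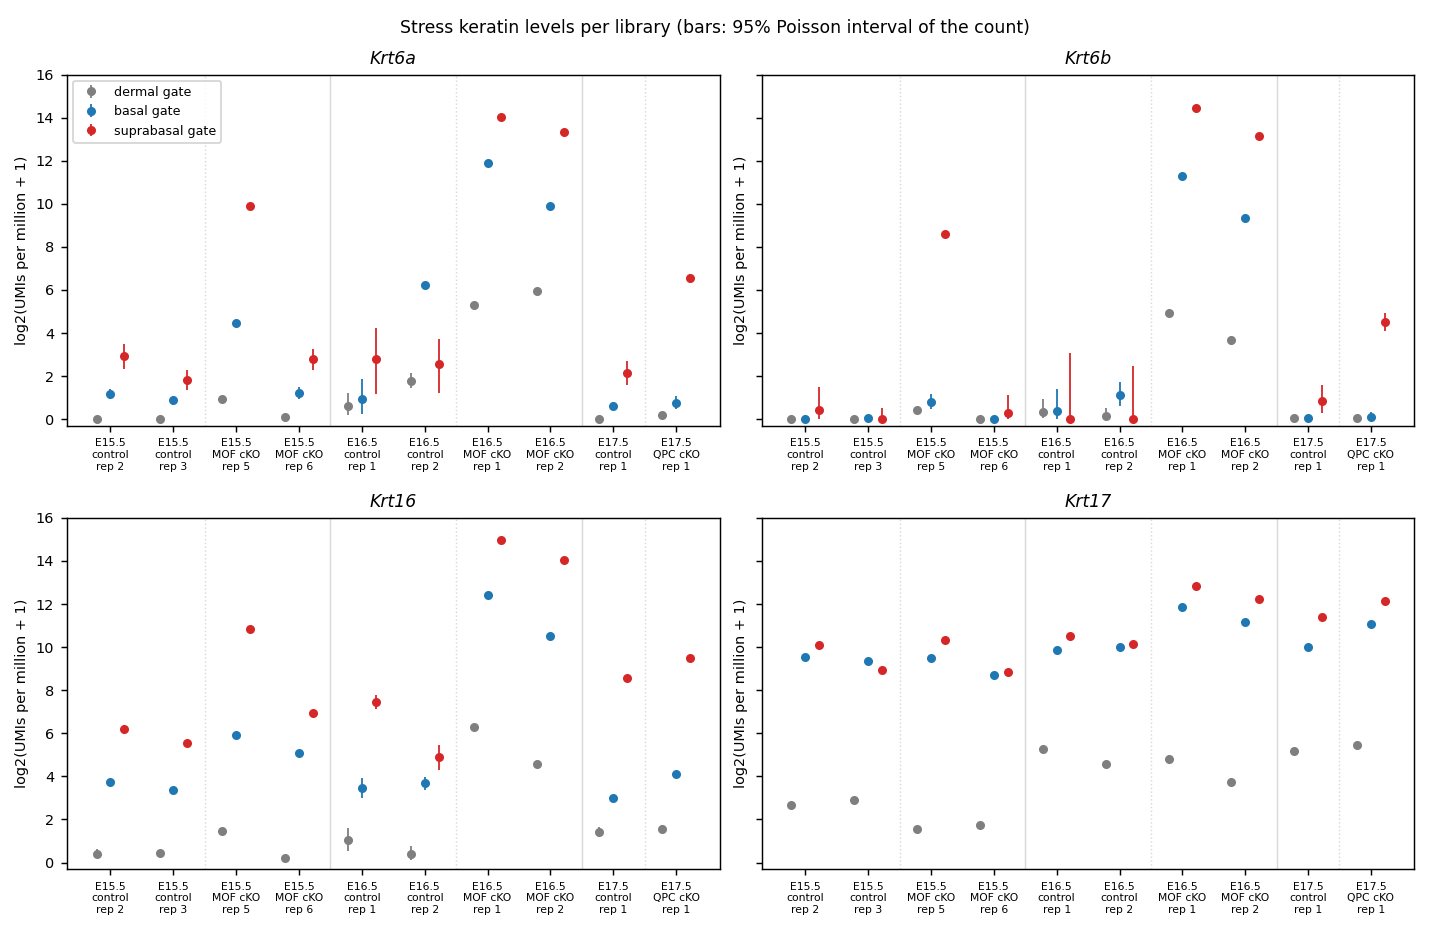
Level of each stress keratin per library, as log2(CPM + 1), in the dermal (grey), basal (blue) and suprabasal (red) gates; points are libraries and bars are 95% Poisson intervals of the count. In the E16.5 MOF cKO libraries Krt6a, Krt6b and Krt16 stand far above the controls in the basal and suprabasal gates, and at E15.5 MOF cKO replicate 5, but not replicate 6, shows the same for Krt6a and Krt6b in the suprabasal gate.

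In the basal gate at E16.5 the same members were higher, at lower levels and unevenly between cells. Krt16 was 10.1 and 11.8 CPM in the controls against 5556 and 1450 in MOF cKO, means of 10.96 ± 1.18 and 3503 ± 2904 (SD, n = 2 each). In MOF cKO replicate 2, 1 cell held 55.4% of its Krt16 UMIs. Krt17 was 944 and 1032 CPM in the controls against 3722 and 2314 in MOF cKO, a ratio of means of 3.05 from 988 ± 62.7 and 3018 ± 996 (SD, n = 2 each). The groups did not overlap for either gene. Krt6b was 0.298 and 1.18 CPM in the controls against 2508 and 649.5 in MOF cKO, where 1 cell of replicate 2 held 97.2% of its UMIs. Other markers differed in this gate too. Dermal markers summed to 9720 and 2261 CPM in the controls against 906 and 1389, basal keratinocyte markers to 14323 and 18466 against 10692 and 10756, and hair follicle markers to 265 and 339 against 99.8 and 162, none of them overlapping between the groups. Both MOF cKO libraries were below both controls for 51.5% of the 9454 genes tested in this gate. The part of these markers in the member levels was not tested.

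Krt6a in the basal gate depended on 1 control cell. It was 0.894 and 74.9 CPM in the E16.5 controls and 3799 and 949.5 in MOF cKO, means of 37.9 ± 52.3 and 2374 ± 2015 (SD, n = 2 each). In control replicate 2, 98.2% of its 508 UMIs came from 1 cell, which had no Krt16 and 12 UMIs of Krt5 and Krt14. That cell also had at least 20 collagen UMIs. Periderm and simple epithelium markers summed to 283 CPM in the basal gate of that library, against 10.1 in control replicate 1 and 16.6 and 36.1 in MOF cKO. The log2 ratio of the means was 5.93, and 10.29 without that library. The sum of the 4 members was 955 and 1120 CPM in the controls against 15586 and 5363 in MOF cKO, a log2 ratio of means of 3.33. In the basal gate 2 of the 4 members (Krt6b and Krt16) were called higher by edgeR, where 0.243% of the 9454 genes tested were called higher; 10.6% of them had both MOF cKO libraries above both controls, as all 4 members did, and nothing is read from these counts either.

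The share of cells with at least 1 UMI followed the levels, but the dermal gate set a high floor at E16.5. In the MOF cKO suprabasal gate Krt6a was found in 9 of 9 cells (100%; 95% Wilson interval 70.1 to 100) and 12 of 13 (92.3%; 66.7 to 98.6), against 6.45% and 4.55% of control cells. Krt16 was found in all cells of both mutant gates and in 35.5% and 15.2% of control cells. In the dermal gate of the same MOF cKO libraries Krt6a was found in 39.6% and 17.7% of cells and Krt16 in 61.9% and 23.5%, against 0.563% and 2.47% and 1.13% and 0.317% in the controls. Median depths were 15580 and 15946 UMIs in the mutant suprabasal gate and 12525 and 11329 in the dermal gate. Krt6a and Krt16 were thus spread over other cells of the mutant libraries, at a far lower level than in epidermis.

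Basal shares stood closer to that floor. In MOF cKO replicate 1, 11 of 21 basal cells (52.4%; Wilson interval 32.4 to 71.7) had a Krt6a UMI. In replicate 2 it was 5 of 22 (22.7%, 10.1 to 43.4), near the 17.7% of its dermal gate, so this share alone does not stand apart from background. Of the 22 cells, 2 had at least 10 Krt6 UMIs. Krt16 was found in 90.5% (71.1 to 97.3) and 54.5% (34.7 to 73.1) of basal cells. The levels stood further apart than the shares did. Krt6a was 38.4 and 60.1 CPM in the dermal gates of MOF cKO, and 73.3% of the replicate 2 value came from 1 cell. Suprabasal levels in MOF cKO were 430 and 170 times the dermal level for Krt6a, 746 and 792 for Krt6b, 420 and 754 for Krt16, and 276 and 392 for Krt17. Basal levels were 98.9 and 15.8 times the dermal level for Krt6a and 72.7 and 64.3 for Krt16. With the dermal level subtracted, the log2 ratio of the sum of 4 was 5.44 in suprabasal and 3.36 in basal cells.

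**Figure D2:**
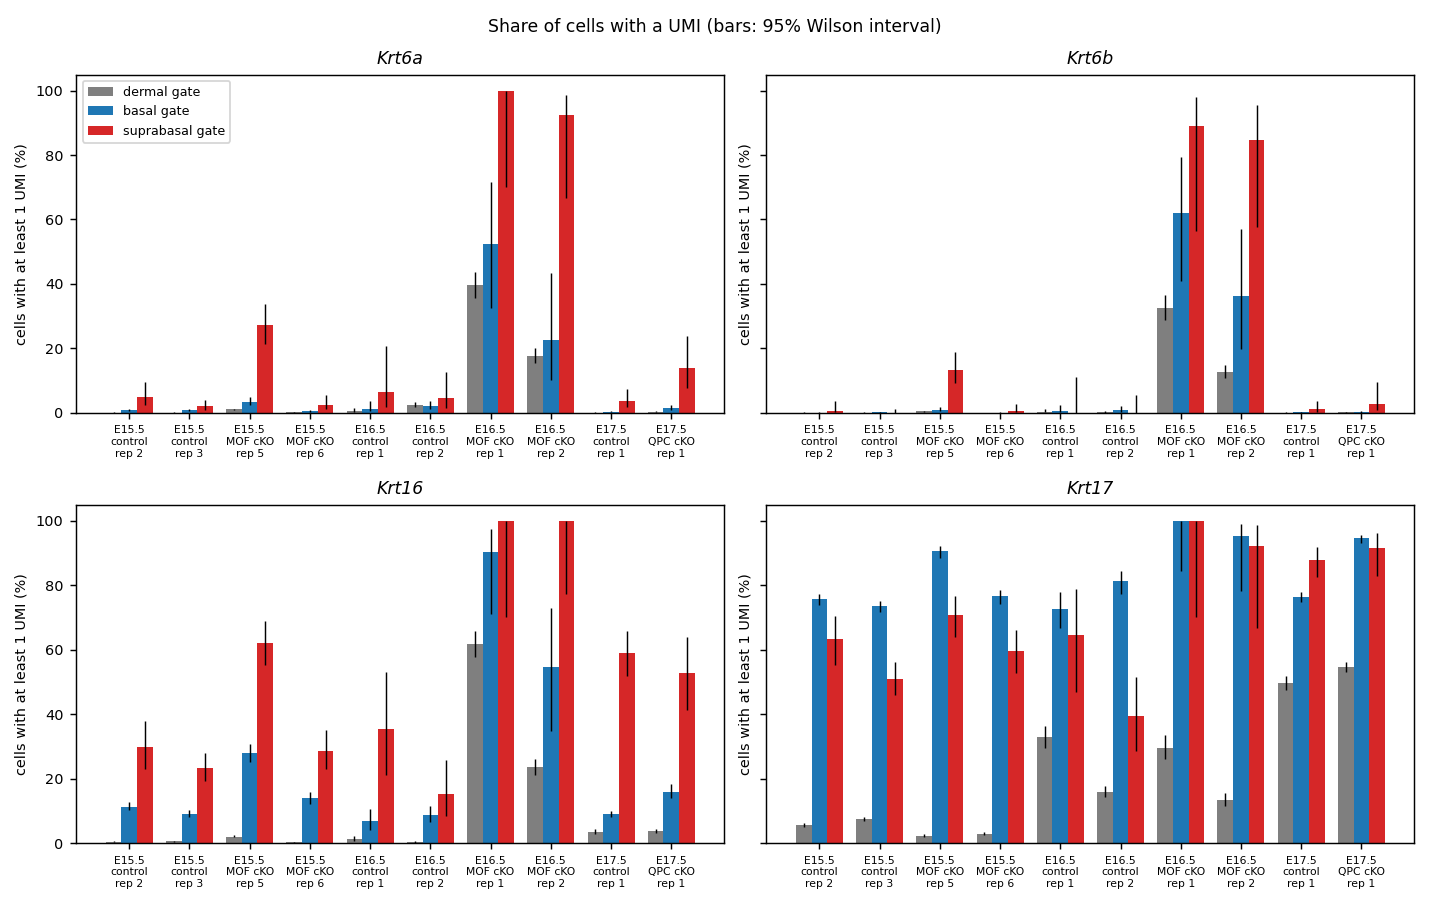
Share of cells with at least 1 UMI (%) of each stress keratin per library, in the dermal (grey), basal (blue) and suprabasal (red) gates, with 95% Wilson intervals. In the E16.5 MOF cKO libraries the suprabasal bars of Krt6a and Krt16 reach 92.3% or more, the dermal bars of those libraries rise with them, and Krt17 is common in every epidermal gate.

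The members were found together in the same cells. All 4 were detected in 8 of 9 and 9 of 13 suprabasal cells of E16.5 MOF cKO, and the remaining cells had 3 of them. In the basal gate all 4 were detected in 10 of 21 (47.6%) and 2 of 22 (9.09%) cells. No control cell of either gate, at any stage, had all 4. The make-up of the members' UMIs differed accordingly. Krt17 was 87.5% to 99.3% of the UMIs of the 4 members in the basal and suprabasal gates of the control libraries. It was 9.36% and 11.6% in the E16.5 MOF cKO suprabasal gate, where Krt16 took 41.0% and 41.3%, Krt6a 21.1% and 24.8%, and Krt6b 28.5% and 22.3%.

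**Figure D3:**
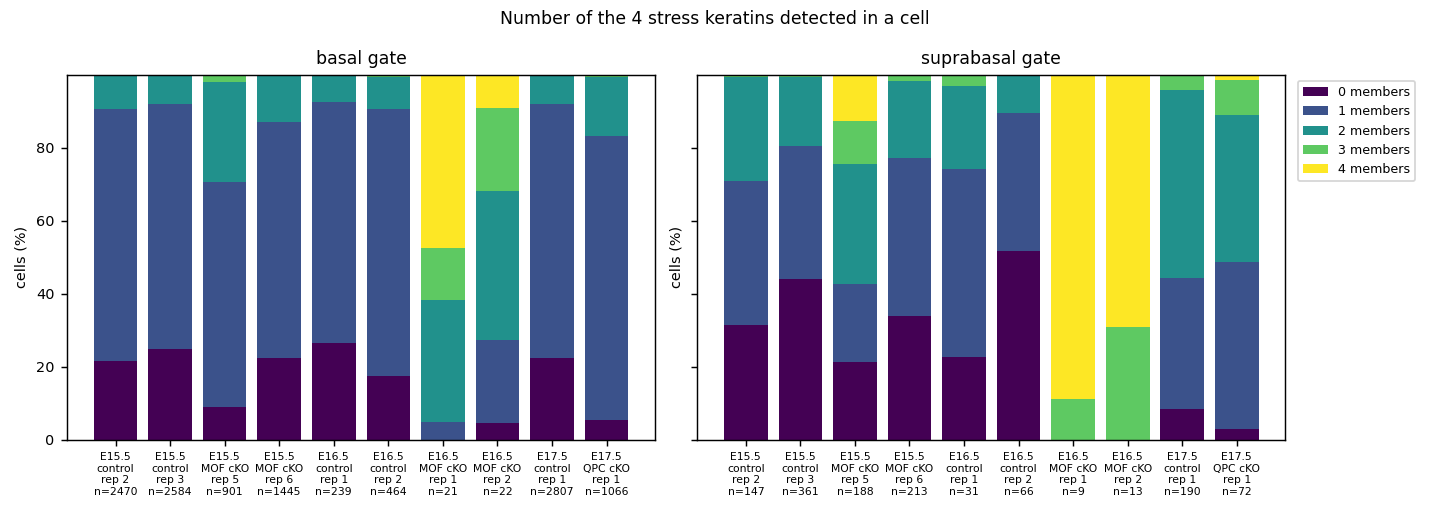
Share of cells (%) in which 0 to 4 of the stress keratins were detected, per library, in the basal (left) and suprabasal (right) gates, with the number of cells under each bar. Cells with all 4 members appear in E16.5 MOF cKO, in E15.5 MOF cKO replicate 5 (12.8% of 188 suprabasal cells) and in 1 of 72 suprabasal cells of QPC cKO, and in no control library.

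Krt6 RNA was concentrated in part of the basal cells. Among E16.5 MOF cKO basal cells, those with at least 10 Krt6a and Krt6b UMIs were 9 of 21 in replicate 1, holding 99.4% of the Krt6 UMIs, and 2 of 22 in replicate 2, holding 98.7%. Krt16 in these cells was 13636 and 16493 CPM. In the cells of the same gates without a Krt6 UMI it was 122 and 27.5. Krt16, the partner chain, was therefore far higher in the cells that held much Krt6. The median mitochondrial share was 0.196% and 1.54% in these cells and 3.25% and 2.85% in those without Krt6. In the 6 of 21 and 5 of 22 basal cells below 1% mitochondrial UMIs the 4 members summed to 32250 and 29926 CPM, against 10294 and 3550 in the other cells, and the part of this share in the keratin levels was not tested. In the suprabasal gate 9 of 9 and 10 of 13 cells reached 10 Krt6 UMIs.

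The E16.5 MOF cKO cells in the suprabasal gate also differed in layer markers. Basal keratinocyte markers summed to 33042 and 25452 CPM, against 13987 and 14202 in the controls, and the median cell had 328 and 385 UMIs of Krt5 and Krt14, against 77 and 8.5. Most of that sum was Krt14, at 30400 and 20165 against 6804 and 6883, whereas the mean of Krt5 was 3402 against 3936 in the controls. Krt5 was 423 and 380 in the mutant cells below 1% mitochondrial UMIs, 8 of 9 and 8 of 13 cells, and 5792 (1 cell) and 5831 in the others, against 396 and 450 and 5931 and 4518 in the controls. Markers of the suprabasal layers summed to 24430 and 24352 against 36778 and 47864, and those of the granular layer (Lor, Flg and Ivl) to 550 and 199 against 39723 and 25218. Cells of the mutant gate thus carried much Krt14 beside Krt1 and Krt10 and few granular transcripts. Periderm markers summed to 0 and 48 against 808 and 220, hair follicle markers to 5 and 72 against 68 and 46, dermal markers to 732 and 973 against 1496 and 1272, and immune markers to 73 and 99 against 18 and 22 with the defining Ptprc at 0 in both MOF cKO gates and in that of control replicate 1. The part of these markers in the keratin levels was not tested.

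The mutant cells also differed in mitochondrial RNA. The median mitochondrial share of UMIs was 0.0811% and 0.0693% in E16.5 MOF cKO suprabasal cells and 3.44% and 2.02% in the controls. Below 1% there were 8 of 9 and 8 of 13 mutant cells, against 11 of 31 and 31 of 66 control cells. The sum of the 4 members in cells below 1% was 80713 and 78213 CPM in MOF cKO and 45.7 and 35.3 in the controls. In the remaining cells it was 74277 (1 cell) and 26787 in MOF cKO, and 2217 and 1581 in the controls. The mutant values were thus above the controls on either side of 1%, and without the cells below 1% the log2 ratio of the sum was 4.73. In E15.5 MOF cKO replicate 5, 37 of 188 suprabasal cells were below 1%, with a sum of 2936 CPM against 4559 in the others.

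**Figure D4:**
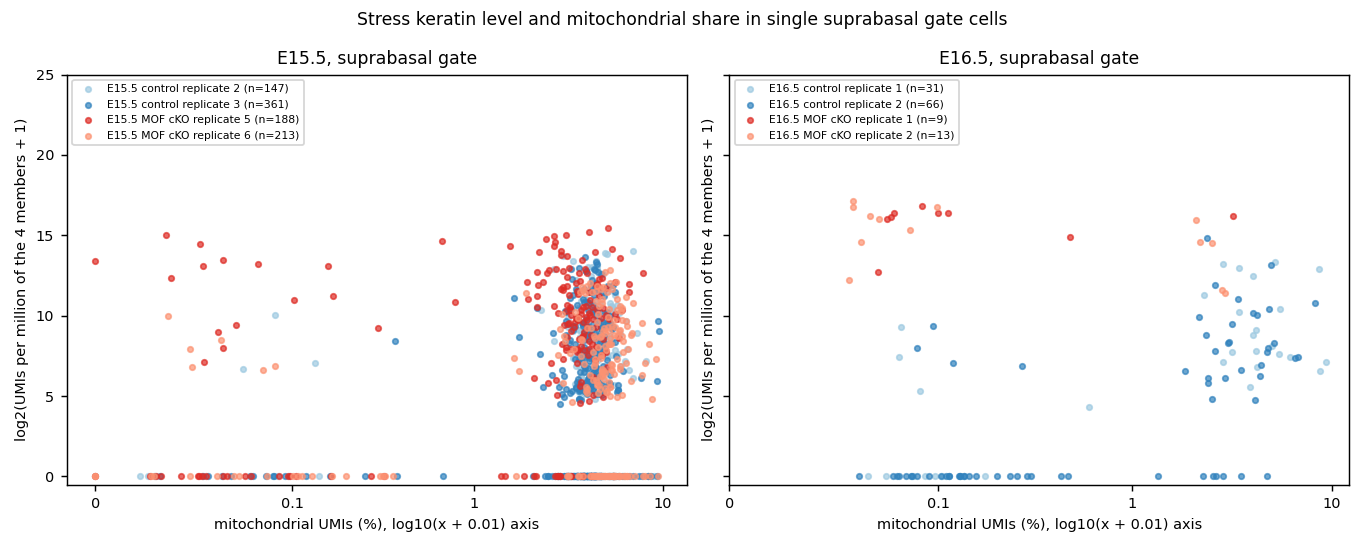
Single suprabasal gate cells at E15.5 (left) and E16.5 (right), by mitochondrial share of UMIs (%, log10(x + 0.01) axis) and by the summed level of the 4 stress keratins (log2(CPM + 1)); colours are libraries and numbers of cells are in the key. The E16.5 MOF cKO cells sit at the top of the plot, most of them below 1% mitochondrial UMIs, and control cells below 1% sit low.

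A day earlier, at E15.5, the 2 MOF cKO libraries differed from each other more than they shared. In the suprabasal gate Krt6a was 6.61 and 2.54 CPM in the controls, 950.0 in MOF cKO replicate 5 and 5.87 in replicate 6. Krt6b was 0.331 (1 UMI) and 0 in the controls, 385 in replicate 5 and 0.217 in replicate 6. The high Krt6 values at this stage came from replicate 5 alone, and replicate 6, the mosaic embryo, lay within the control range for Krt6a and Krt6b. Krt16 was 71.4 and 46.0 in the controls, 1808 in replicate 5 and 123 in replicate 6, so that both mutant libraries were above both controls. Its means were 58.7 ± 18.0 and 966 ± 1191 (SD, n = 2 each), a ratio of 16.45. Krt17 overlapped between the groups, at 1086 and 492 CPM in the controls against 1286 and 463 in MOF cKO. The log2 ratio of the sum of 4 was 1.56, and -0.53 without replicate 5. In the same gate basal keratinocyte markers summed to 14873 and 8843 CPM in the controls, 3953 in replicate 5 and 8135 in replicate 6. Dermal markers summed to 1020 and 687 against 2161 and 1930, and immune markers to 23.8 and 21.9 against 103 and 41.7. The part of these markers in the keratin levels was not tested.

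In the E15.5 basal gate only Krt6a and Krt16 had both mutant libraries above both controls, and for Krt6a the margin was only 1.31 against 1.24 CPM. Krt16 was 12.4 and 9.38 CPM in the controls against 59.1 and 33.4 in MOF cKO, a ratio of 4.25 between means of 10.9 ± 2.13 and 46.2 ± 18.1 (SD, n = 2 each). Krt6a was 1.24 and 0.833 against 21.5 in replicate 5 and 1.31 in replicate 6. In replicate 5, 5 of 901 basal cells held 88.4% of the Krt6 UMIs, and in replicate 6, 1 of 1445 held 59.0%. Krt17 was 738 and 652 against 715 and 414, and its groups overlapped. Krt6b was near or at 0 in every library, from 0 to 0.750. Basal keratinocyte markers in this gate summed to 15931 and 13772 CPM in the controls, 6529 in replicate 5 and 12506 in replicate 6, and dermal markers to 1899 and 1875 against 2796 and 2417; their part was not tested. Of the 3 members that passed the filter on low counts (Krt6b did not), edgeR called 0 in either gate, against 0% of the 14364 genes tested in basal and 0% of the 10819 in suprabasal cells. At an unadjusted p under 0.05 there were 1309 genes in basal and 836 in suprabasal cells, and DESeq2 called 120 and 49 genes. The 120 include Krt16, the 1 member that DESeq2 called. Nothing is read from that call, as the members were chosen on this contrast. Both mutant libraries lay above both controls for 17.7% of the genes tested in basal and 16.7% in suprabasal cells.

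In the E15.5 basal gate Krt16 was found in 11.3% and 8.98% of control cells against 27.9% and 13.9% in MOF cKO, and in 4.35% and 3.38% against 12.2% and 6.12% once cells were thinned to 5000 UMIs. In the dermal gate it was found in 0.407% and 0.489% of control cells against 2.01% and 0.197% in MOF cKO. Median depths were 15800 and 18314.5 UMIs in control and 18912 and 19948 in MOF cKO basal cells, and 11056 to 13034 in the dermal gates.

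Within replicate 5, Krt6 was detected in part of the suprabasal cells. Krt6a was found in 51 of 188 cells (27.1%) and Krt6b in 25 (13.3%), against 4.76% and 1.94% of control cells for Krt6a and 1.014% of the dermal cells of replicate 5. After thinning the Krt6a shares were 22.3% in replicate 5 and 0.990% in replicate 6, against 1.39% and 0.573% in the controls. Of the 51 cells with Krt6a, 47 also had Krt16, as did 51.1% of the cells without it, and the 25 cells with Krt6b all had Krt6a and Krt16. The 32 cells with at least 10 Krt6 UMIs held 98.6% of them, and their Krt16 was 7056 CPM, against 320 in the 137 cells without Krt6. Krt17 was 2946 against 772, and the basal keratin Krt14 5096 against 1510, whereas Krt5 was 967 against 1453. Mki67 or Top2a, which mark dividing cells, were found in 9 of the 32 cells (28.1%) and in 68 of the 137 (49.6%), although the former were deeper, with a median of 31575.5 against 21560 UMIs. Cells rich in Krt6 were thus rich in Krt16, Krt17 and Krt14 but not in Krt5. These are cells of 1 library, and the differences between them were not tested.

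The members also differed in which layer held them. In replicate 5 the 14 suprabasal cells with at least 20 UMIs of loricrin (Lor), a granular layer protein, had 3790 CPM of Krt16 and 86.7 of Krt17, and the 174 other cells 1633 and 1392. Krt6a was 1234 and 925 in these 2 classes. Of the 14 cells, however, 8 had no Krt6 UMI and 5 had at least 10. By that split Lor was 3315 CPM in cells without Krt6, 219 in those with 1 to 9 UMIs and 730 in those with at least 10. In the 7 to 17 control cells rich in loricrin per library at E15.5 and E16.5, Krt6a, Krt6b and Krt16 were at 0. Krt17 was tied to cells that kept Krt5 and Krt14. Among control suprabasal cells at E15.5 and E16.5 it was 14.6 to 45.6 CPM where Krt5 and Krt14 were under 10 UMIs. It was 638 to 1673 where they were at least 10. In controls at E15.5 and E16.5 Krt16 was 2.46 to 17.3 times as high in the suprabasal as in the basal gate and Krt17 0.76 to 1.55 times. Krt16 was thus higher in the suprabasal gate of every one of these control libraries, and Krt17 in 3 of 4.

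At E17.5 the loss of QPC was followed with 1 library a group, so intervals cover counting error only and there is no test. In the suprabasal gate Krt6a was 3.41 CPM in control and 91.9 in QPC cKO cells, a ratio of 27.0 (95% interval 16.4 to 47.2). Krt6b was 0.803 and 22.0, a ratio of 27.4 (10.0 to 104.99). Krt16 was 377 and 715, a ratio of 1.90 (1.77 to 2.03), and Krt17 was 2665 and 4495, a ratio of 1.69 (1.64 to 1.73). Most of the Krt6 came from few cells. In QPC cKO 4 of 72 suprabasal cells held 87.8% of the Krt6 UMIs, with 17195 CPM of Krt17 and 5042 of Krt16. Krt6a was found in 13.9% of QPC cKO and 3.68% of control cells, against 0.243% and 0 of their dermal gate cells, and Krt16 in 52.8% and 58.9%.

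In the E17.5 basal gate Krt17 was 1041 CPM in control and 2132 in QPC cKO cells, a ratio of 2.05 (2.02 to 2.07), and was found in 76.5% and 94.6% of cells. Krt17 was common in the dermal gate too at this stage, with 49.7% and 54.7% of its cells positive at 35.2 and 43.2 CPM. After thinning the basal shares were 52.5% and 83.7% against 16.7% and 20.9% in the dermal gate. Median depths were 23870 and 25183 UMIs in basal and 19816 and 18004 in dermal cells. Krt16 was 7.06 and 16.3, a ratio of 2.31 (2.02 to 2.64). Krt6a was 0.529 and 0.692, with an interval of the ratio from 0.698 to 2.37, and Krt6b had 3 and 2 UMIs, at which no ratio is given. Beyond 2-fold with at least 100 UMIs were Krt16 and Krt17 in basal cells (1.81% of 12851 genes were higher by this rule) and Krt6a in suprabasal cells (0.389% of 5911 were higher, 1.23% lower and 1.62% either). The control basal gate held many cells at its edge. In it 1481 of 2807 cells had 10 to 19 UMIs of Krt5 and Krt14, against 158 of 1066 in QPC cKO, and 49.4% against 10.4% had at least 20 collagen UMIs. Dermal markers summed to 30716 against 5376 CPM. Markers of the hair follicle, whose germ Krt17 marks, summed to 339 in control and 723 in QPC cKO basal cells, and 1597 of 2807 against 939 of 1066 cells had at least 3 UMIs of them. The part of these markers in the Krt17 level was not tested. With the gate limits doubled, the log2 ratio of the sum of 4 fell from 1.03 to 0.20, and it was 0.28 without collagen-positive cells. In basal cells without follicle marker UMIs Krt17 was 52.4 CPM in control and 217 in QPC cKO, and Krt16 was 1.62 and 1.43.

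To set Krt17 beside the hair follicle, basal cells were split by the summed UMIs of 8 follicle genes (Sox9, Shh, Lhx2, Pthlh, Edar, Wnt10b, Lef1, Fgf20), which the choice of members did not use. Krt17 in control cells with 0 and with at least 3 of these UMIs was 577 and 770, and 538 and 673 CPM at E15.5. It was 290 and 1611, and 629 and 1286 at E16.5, and 52.4 and 1787 at E17.5. It was higher in 5 of 5 control libraries, with a mean log2 difference of 1.86 ± 1.99 (SD, n = 5). With 5 libraries an exact sign-flip permutation test cannot reach 0.05, so the difference is given by its values. With the gate limits doubled the mean difference was 0.50 ± 0.29 (SD, n = 5), again higher in 5 of 5, and the E17.5 control values were 1753 and 2239. In E16.5 MOF cKO the values were 3942 and 2413, and 4548 and 1650, so that Krt17 was lower where follicle genes were detected. Krt16 there was 7434 and 1493, and 6045 and 45.8. These values rest on 9 and 7 cells in replicate 1 and 7 and 10 in replicate 2. Their median depths were 12009 and 20906, and 13738 and 25989.5 UMIs, and the part of depth was not tested. Over all 10 libraries Krt17 was higher in 7 and Krt16 in 4.

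On chromosome 11 the order is Krt14, Krt16, Krt17, Krt42, and on chromosome 15 it is Krt75, Krt6b, Krt6a, Krt5. In the E16.5 suprabasal gate Krt42 and Krt75 were at 0 in all 4 libraries. Krt5 was described with the layer markers. Krt14, the partner of Krt5, was 6804 and 6883 in the controls against 30400 and 20165 in MOF cKO, with a log2 change of 2.42 ± 0.63 (SE) and an adjusted p of 0.078. Of the 27 keratin genes in each cluster, edgeR called Krt16 and Krt17 higher and Krt23 lower on chromosome 11, and Krt6a and Krt6b higher on chromosome 15. The remaining ones were not called (3 and 4 genes) or were not tested (21 and 21), for low counts or because, like Krt87, Krt88 and Krt90, they are not listed in the E16.5 annotation. Of all 4266 genes tested in this gate, 3.35% were called higher and 0.68% lower. The 4 members were chosen on this contrast, so nothing is read from their calls.

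**Figure D5:**
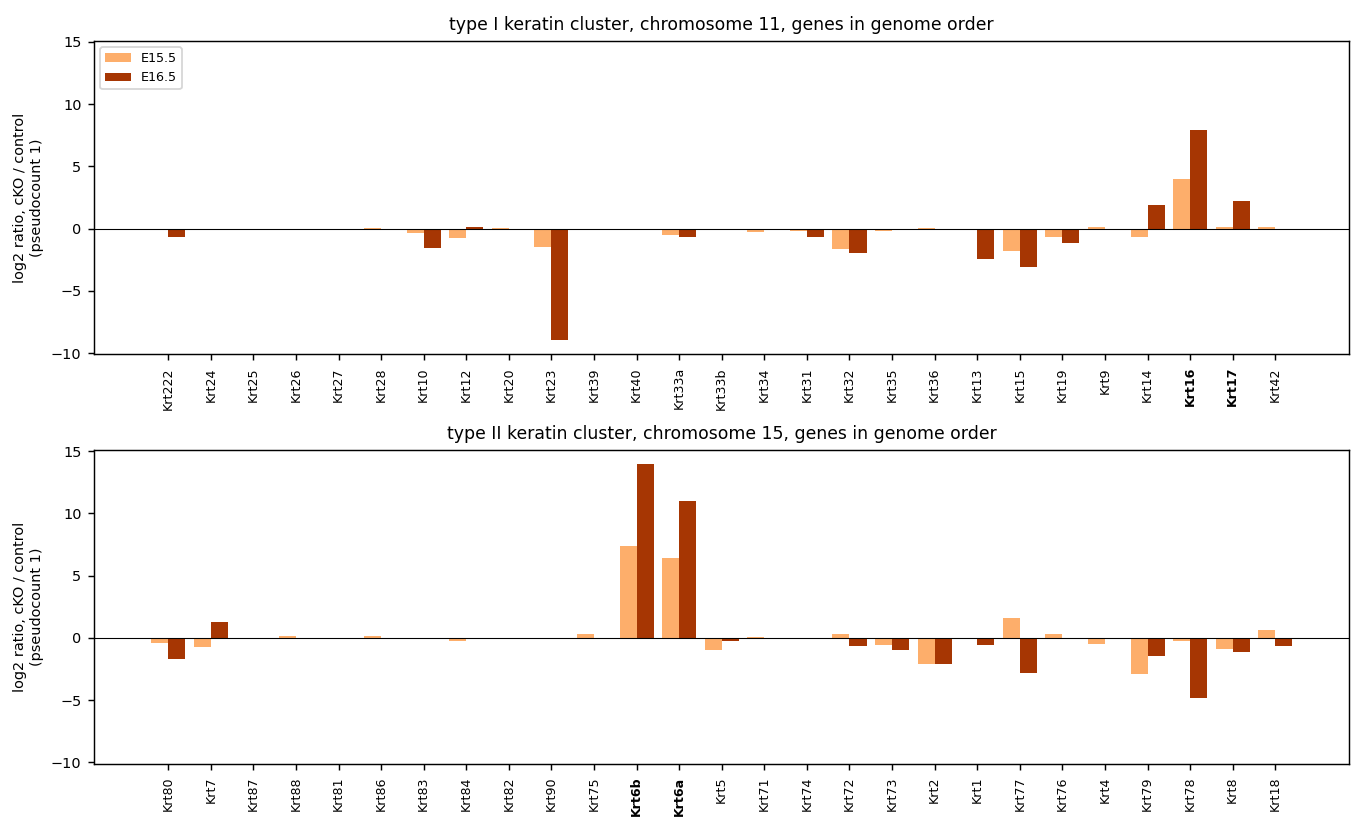
Log2 ratio of mean CPM (pseudocount 1) of MOF cKO over control in the suprabasal gate, at E15.5 (light) and E16.5 (dark), for 27 keratin genes on chromosome 11 (top) and 27 on chromosome 15 (bottom, with the type I gene Krt18 at its end), in genome order. Of the members, in bold, Krt6a, Krt6b and Krt16 stand above their neighbours, whereas Krt17 is level with Krt42 at E15.5 (0.15 each) and close to Krt14 at E16.5 (2.23 and 1.89), and Krt23 is the longest bar downward.

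Using all libraries and gate cells and a filter on low counts, edgeR called 0 of the other keratins that it could test higher. In E16.5 suprabasal cells it called 1 of 8 higher and 2 lower without collagen-positive cells. Without the filter on low counts it called 1 of 23 higher and 4 lower there. Of 47 listed in the E16.5 annotation, 8 could be tested in suprabasal cells, with 0 higher and 1 lower, where 3.35% of all 4266 genes tested were higher and 0.68% lower, and a median log2 change of -1.01, against -0.05 over all of them. DESeq2, which gives no adjusted p to genes of low counts, called 1 higher and 2 lower of the 23 detected. The one that fell was Krt23, a keratin of simple epithelium and periderm, from 796 and 199 to 0 and 0 CPM (adjusted p = 0.024), a call that was lost without either MOF cKO library. The differentiation keratins Krt10 and Krt1 had means of 20124 and 12325 in the controls against 6962 and 8177 in MOF cKO and were not called. In basal cells 8 were tested and 0 called by edgeR (2 at an unadjusted p under 0.05), with a median of -0.41 against -0.11 over 9454 genes. Krt14 there was 7865 and 9853 in the controls against 7516 and 6495 in MOF cKO. At E15.5, 0 of 16 were called by edgeR in basal and 0 of 14 in suprabasal cells. At both stages and in both gates the tested keratins include Krt5, Krt14, Krt1 and Krt10, which define the gates. The counts and medians of this list are thus partly set by the gating.

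Among the genes that anchor keratin filaments, a pair of desmosomal cadherins rose. Of 20 linkers (desmosomal and cytolinker genes), 14 were tested in E16.5 suprabasal cells, with 2 higher and 0 lower, against 3.35% and 0.68% of all genes, and a median log2 change of 0.97. Dsc2, a desmosomal cadherin, rose from 4.02 and 2.42 to 114 and 106 CPM, 34.2-fold (adjusted p = 0.011). Dsg3, the desmosomal cadherin of basal cells, rose from 6.03 and 9.68 to 57.1 and 58.2, 7.34-fold (adjusted p = 0.022), a call that was lost without either MOF cKO library. In basal cells 16 were tested and 0 called by edgeR, with a median of 1.04, and 11 had an unadjusted p under 0.05, as did 1923 of all 9454 genes. DESeq2 called 5 linkers higher there, and edgeR 5 without control replicate 2. Sfn, which encodes the 14-3-3 sigma protein that binds keratin, was 741 and 946 in control and 4659 and 1595 in MOF cKO basal cells. At E15.5, 0 of 18 and 0 of 19 were called in basal and suprabasal cells. The linker list was chosen with earlier results of these data known, so its counts are no test against the share of all genes.

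Genes known to induce stress keratins (epidermal growth factor ligands, cytokines of the IL-1 and IL-6 families, AP-1, Stat3, Nrf2 and their like) included a few that rose. This list too was chosen with earlier results of these data known, and its counts are no test against the share of all genes. Of 42 listed, 19 were tested in E16.5 suprabasal cells, with 3 higher and 1 lower, against 3.35% and 0.68% of all genes, and a median log2 change of 0.53. Areg, a ligand of the EGF receptor, was at 0 in both controls and at 83.1 and 95.9 CPM in MOF cKO, at least 39.5-fold higher (adjusted p = 0.011). Hbegf, another such ligand, rose from 12.1 and 23.0 to 197 and 68.5, 7.58-fold (adjusted p = 0.045), which was lost without MOF cKO replicate 1. Stat3 rose from 26.1 and 18.2 to 77.9 and 71.9, 3.38-fold (adjusted p = 0.039), but was called in only 3 of 10 other settings. Il1f5, an antagonist in the IL-36 family, fell from 295 and 389 to 41.5 and 27.4, 9.92-fold (adjusted p = 0.027), a call that was lost without either MOF cKO library. In basal cells, where 0.243% of all genes were called higher, 30 were tested and Areg and Hbegf rose, by 82.9-fold from 0.298 and 0.442 to 38.8 and 22.6, and by 17.01-fold from 5.66 and 4.42 to 122 and 49.6 (adjusted p = 0.047 each). Both calls were absent at a mitochondrial limit of 5% and without either MOF cKO library, and that of Areg also without control replicate 1. DESeq2 called 9 inducers higher there, of the 40 detected, and edgeR 10 of 40 without a filter on low counts. With library sizes alone as the scaling, which lowered the median of all genes to -0.58, the median of this list in suprabasal cells was -0.02, and those of other keratins, linkers and the companions described next were -1.48, 0.43 and 3.72. Cells with at least 20 collagen UMIs were 22.2% and 30.8% of MOF cKO suprabasal cells and 9.68% and 7.58% of control ones. Without them 0 of 17 inducers tested were higher and 2 lower, with a median of 0.35. Medians of other keratins, linkers and companions were then -1.28, -0.30 and 5.26.

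Most of the testable genes that accompany stress keratins in activated epidermis rose in the suprabasal gate at E16.5. Of 41 listed, 22 were tested in E16.5 suprabasal cells, with 14 higher and 0 lower, against 3.35% and 0.68% of all genes, and a median log2 change of 4.26, and 8 of the 14 were called under every other setting in which they were tested. S100a9 and S100a8, the subunits of calprotectin, rose from 0 and 3.63 to 7408 and 2926 CPM and from 2.01 and 2.42 to 3037 and 644. Sprr1a, a cornified envelope precursor, rose from 2.01 and 4.84 to 10767 and 2898. Sprr2h and the protease gene Klk6 were at 0 in both controls and at least 136-fold and 67.1-fold higher. Genes so near 0 in the controls, Areg and Dsc2 above among them, could pass the count filter only through the mutant libraries. The list, like those of other keratins, linkers and inducers, was also chosen with earlier results of these data known. Its count is therefore no test against the share of all genes. Without MOF cKO replicate 1, 8 of the list were called, and Klk6 was not. In basal cells 27 were tested, with a median of 2.69 and 14 at an unadjusted p under 0.05, and edgeR called 1 higher. DESeq2 called 12 of the 39 detected, and edgeR 21 of 39 without a filter on low counts and 7 of 21 without collagen-positive cells. The count also changed when 1 library was left out. The 1 that rose was Mmp9, a gelatinase of migrating keratinocytes and of immune cells, from 0 and 0.295 to 63.7 and 29.3 (adjusted p = 0.047). That call was lost without either MOF cKO library and at a mitochondrial limit of 5%, and the basal gate of replicate 2 held immune markers at 954 CPM, against 144 in replicate 1 and 188 and 32 in the controls. Their part in the Mmp9 value was not tested. The fit called 143 genes higher and 29 lower in suprabasal cells, and 126 higher and 179 lower with library sizes alone.

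At E15.5 edgeR called 0 of the 33 and 30 inducers tested and 0 of the 26 and 26 companions in basal and suprabasal cells, with companion medians of 0.26 and 0.92 and inducer medians of -0.33 and -0.15 against -0.01 over all genes. At an unadjusted p under 0.05 there were 14 and 6 inducers and 8 and 9 companions. These counts depended on the filter, the tool and the libraries. In suprabasal cells 16 of 37 companions were higher and 1 lower, and 4 of 40 inducers higher and 4 lower, without a filter on low counts, whereas DESeq2 called 2 companions higher and 1 lower and 0 inducers higher and 2 lower. In basal cells DESeq2 called 3 of each list lower. Without replicate 6, 12 of 28 companions were higher and 6 lower in basal cells, and 18 of 31 were higher and 2 lower in suprabasal cells, in fits that called 7518 of all 15213 genes in basal and 1762 of 11374 in suprabasal cells. Without replicate 5 it was 1 higher and 6 lower of 26, and 0 higher and 1 lower of 26, where 747 of 15039 and 38 of 11267 genes were called.

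At E17.5, genes with enough counts were counted where they passed 2-fold. In suprabasal cells 0 of 8 other keratins and 0 of 14 linkers passed, and of 21 inducers 1 was lower, Fos, at 2.16-fold, where 0.389% of all genes were higher and 1.23% lower. The companion Sprr1b was 3.61 CPM in control and 57.0 in QPC cKO suprabasal cells, 15.8-fold higher and the 1 gene of 8 with enough counts that passed 2-fold. In basal cells, where 1.81% of all genes were higher and 14.2% lower, 5 keratins were higher and 4 lower of 15. The gate gene Krt1 was among those 4. Of 16 linkers 1 was higher and 0 lower, of 34 inducers 4 higher and 9 lower, and of 24 companions 6 higher and 7 lower. There Il6, Il1a, Ptgs2 and S100a8 were 29.3-fold, 18.0-fold, 9.72-fold and 16.53-fold lower in QPC cKO, in the gate whose dermal markers differed as given above. Epgn, an EGF receptor ligand, was 12.8-fold higher at 15.3 against 1.19 CPM, and Pthlh, also a follicle gene of the split above, 4.82-fold higher.

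Across the 20 library and gate sums, the genes most like each member were named by the Pearson correlation of log2 levels centred within stage and gate, over 5228 genes. The sums share libraries and the E16.5 contrast dominates them, so the values are a description. Krt6a was most like Krt6b (r = 0.96), then Ptges (0.95), Dsg3 (0.94), Phlda3 (0.93) and Krt16 (0.93). Krt6b was most like Sprr2h (0.98), S100a9 (0.97), Ptges (0.97) and Krt6a (0.96). Krt16 was most like 2310046K23Rik (0.96), Krt6b (0.96), Myl12a (0.94), Jag1 (0.94) and Cxcl16 (0.94). Krt17 was most like Plet1 (0.94), Dsg3 (0.93), Dusp6 (0.92), Smox (0.92) and Hspa1b (0.91), and no other member was among its 5. Krt17 had 0.87 to 0.90 with the other members over all 20 sums, and 0.49 to 0.64 over the 12 sums without the E16.5 libraries.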

How the data were processed

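Dissociated E15.5, E16.5 and E17.5 back skin was profiled with 10x Genomics 3' kits. The deposited values are raw UMI counts per gene and barcode, which the authors made with Cell Ranger on mm10 (versions 1.3.1 and 6.1.2 in the submitters' processing notes) and did not normalize. Cells were kept by the study's limits, and no doublet caller was run. Counts were summed per library and gate, so libraries and not cells were replicates. Genes were tested per stage with edgeR 4.0.16 (filterByExpr, TMM, quasi-likelihood test, Benjamini-Hochberg adjustment over all genes tested, threshold 0.05) in R 4.3.3, and with DESeq2 1.42.0 as an alternative. Log2 ratios of the members are of group means plus a pseudocount of 1. Shares were also computed after thinning cells to 5000 UMIs. Intervals are 95% Wilson or exact Poisson intervals and, like the floor of 3 counts, cover counting error only. The members, gates and gene lists were chosen with earlier results of these data known. Of each list up to 5 called genes with the largest change are named, or, where none was called, by highest level. Genes named by likeness had a mean of at least 20 CPM. Sequences and coordinates were read from GRCm38 with GENCODE vM21. Python 3.11.15 was used for all other steps.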

Additional observations from a re-analysis of the deposited data

How the results depend on the processing

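Alternatives using all deposited barcodes, leaving out the cell with most member UMIs, subtracting the dermal level or leaving out cells under 1% mitochondrial UMIs were chosen after seeing the data. The log2 ratio of the sum of the 4 members moved beyond the replicate spread or the counting interval as follows, and the causes were not tested. At E15.5 it was -0.18 in basal cells, 0.50 in cells without follicle marker UMIs, and -0.65 (without MOF cKO replicate 5) to 0.17 (without replicate 6) when 1 library was left out. In E15.5 suprabasal cells it was 1.56, and -0.53 (without MOF cKO replicate 5) to 2.38 (without replicate 6). In E16.5 basal cells it was 3.33, 5.36 without follicle marker UMIs, and 2.37 (without MOF cKO replicate 1) to 3.91 (without replicate 2). In E16.5 suprabasal cells it was 5.41, 4.45 over all deposited barcodes, 4.73 without cells under 1% mitochondrial UMIs, and 4.88 to 5.80 with 1 library left out. In E17.5 basal cells it was 1.03, 1.06 as a mean over cells, 0.20 with gate limits doubled, 1.42 at a mitochondrial limit of 5%, 0.28 without collagen-positive cells, 1.998 without follicle marker UMIs, 0.80 over all barcodes and 1.05 with the dermal level subtracted. In E17.5 suprabasal cells it was 0.81, 0.76 as a mean over cells, 0.52 at a mitochondrial limit of 5%, 0.73 after thinning and 0.77 without the top cell. Of 316 values of single members 54 moved, and Krt16 in E17.5 basal cells turned to -0.10 without follicle marker UMIs. Counts of genes called by edgeR rested on few libraries. At E15.5 basal they were 0, 120 by DESeq2, 2 without a filter on low counts and 0 to 7518 with 1 library left out (7518 without MOF cKO replicate 6, 747 without replicate 5). At E15.5 suprabasal they were 0, 49 by DESeq2, 525 without a filter and 0 to 1762 (1762 without MOF cKO replicate 6, 38 without replicate 5). At E16.5 basal they were 23, 307 by DESeq2, 991 without a filter, 12 at a mitochondrial limit of 5% and 0 to 434 (57 without control replicate 1, 434 without control replicate 2, 0 without either MOF cKO library). At E16.5 suprabasal they were 172, 305 with library sizes alone, 636 without a filter and 30 to 247 (247 without control replicate 2, 30 without MOF cKO replicate 1, 114 without replicate 2). The lone library left in a group was assumed to vary like the other group. With the E16.5 replicate number as a replicate block, 52 genes were called in basal and 88 in suprabasal cells. Same-numbered libraries did not deviate together (correlations of -0.078 and -0.038), but with 9 to 22 MOF cKO cells a gate this cannot exclude pairing. The study's text describes 2 pairs of samples at each MOF stage, with littermate controls. Whether the numbers mark those pairs is not given. The suprabasal calls of Krt17, Dsg3, Il1f5, Stat3, Hbegf, Tgm1, Gjb6 and Stfa2 were not made with the block. At E15.5 and E17.5 no paired analysis was possible because the groups share fewer than 2 replicate numbers. The number of cells limits the E16.5 MOF cKO values, which rest on 9 to 22 cells a gate.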
